A study of Mus musculus with 96 samples.

Results

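mCHERRY_2_Barcode_4128 and mCHERRY_2_Barcode_1204592 mark 2 clones of leukaemia cells that began as granulocyte-monocyte progenitors (GMP). Both belong to the mCHERRY barcode library, which held 3078 of the 4675 barcodes listed. The 2 clones were selected on measured values, namely their marrow-to-spleen ratio in these mice, so that ratio is described here without a test. The marrow share of clone 4128 exceeded its spleen share in 3 of 7 NSG mice and in 8 of 8 Ptprca mice. For clone 1204592 it did so in 5 of 7 NSG mice and in 8 of 8 Ptprca mice. The description as marrow-leaning thus covers Ptprca mice, by the choice of the clones, and not NSG mice as a group. Of the 78 GMP-library clones compared, 18 (23.1%) were higher in marrow in all 8 Ptprca mice. With a mean log2 ratio of 1.17 there, clone 1204592 lay below the median clone, at 1.49.

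The study asked how leukaemias of different cells of origin compete in vivo. Progenitors from the bone marrow of female C57BL/6 mice aged 6 to 8 weeks were sorted as LSK (Lin-, c-Kit+, Sca-1+) or as GMP (Lin-, c-Kit+, CD34+, FcγRHI). Both received the MLL-AF9 retrovirus and a SPLINTR barcode library, GFP for LSK and mCHERRY for GMP. The groups were NSG mice given GMP and LSK cells together (mice 21, 22, 23 and 24, the last with spleen only), NSG mice given GMP cells alone (13 to 16), Ptprca mice given both (17 to 20) and Ptprca mice given GMP cells alone (5 to 8). The cells before transplantation were sampled as 1 pool of GMP cells, 1 pool of both and 1 pool of LSK cells. The LSK pool, and NSG mice 9 to 12 and Ptprca mice 1 to 3 given LSK cells alone, enter only the closing observations. All leukaemia cells therefore carried MLL-AF9. The ages, sex and cell doses of the recipients are not given in the sources used here. Nothing in the labels says whether the mice were transplanted in separate batches, and mice given the same cells share a starting pool, so a p-value measures only the spread between these mice.

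MLL-AF9 is a fusion oncoprotein that keeps progenitors self-renewing and produces acute myeloid leukaemia in mice. A barcode is a short DNA tag that integrates into the genome and passes to every descendant, so the share of barcode reads stands for the share of cells a clone holds. Leukaemia cells fill the marrow and also colonise the spleen, so that comparing both tissues of a mouse shows whether a clone is spread evenly. NSG mice lack T, B and natural killer cells, whereas Ptprca names the CD45.1 form of the leukocyte antigen CD45, carried by immunocompetent congenic mice. A share says nothing of the number of cells in a tissue, and a clone's share also moves when other clones expand. Whether 1 cell carried both barcodes was not tested.

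The 31 tissue libraries held between 5239254 and 7814019 reads, of which 1562645 to 7341241 came from the GMP library. All percentages below are of the GMP-library reads, unless stated otherwise. The 95% Wilson interval of a member's percentage reached at most 3.39% of the value on either side, and a count of 0 would allow a share of up to 4.09e-05% to 0.000192%. These limits cover counting error only, and take the smallest value above 0 of each column as 1 read. In mixed recipients GMP barcodes took 20.4% to 56.1% of all reads in NSG mice and 49.9% to 67.6% in Ptprca mice. There were 6 libraries that stood apart by their barcodes, from mice 6, 7, 8, 13, 14 and 18. In them, 0.1% or more of the reads came from a library the mouse had not received, or 1% or more from barcodes seen in no starting pool. Values without these mice are given with the results.

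Both clones were among the leading GMP clones of the recipients and had been abundant before transplantation. Over the tissues of mice given GMP cells alone, clone 1204592 ranked 3 at a mean of 10.3% and clone 4128 ranked 6 at 4.71%. The pools had another order. Clone 4128 was the largest of the GMP library there, with 3.24% of the GMP pool and 3.30% of the GMP barcodes of the mixed pool. Clone 1204592 ranked 4 in both, with 2.16% and 2.08%. The clones that led the recipients were 626161, at 29.1% in these mice and 2.97% in the GMP pool, and 283858, at 28.1% in these mice and 0.491% in the GMP pool.

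In NSG mice clone 4128 had no common direction. With LSK cells its marrow percentages were 2.16, 4.92 and 1.11 in mice 21, 22 and 23. Their spleens held 3.49, 0.274 and 0.214%, and the spleen of mouse 24, without a marrow library, held 14.7%. The marrow was ahead in mice 22 and 23, with ratios of 17.96 and 5.21, and behind in mouse 21, with a ratio of 0.618. With GMP cells alone the marrow percentages were 1.02, 1.78, 0.667 and 4.96 in mice 13, 14, 15 and 16, and those of the spleen 5.44, 12.4, 1.48 and 2.03. Here 3 of the 4 mice had more of the clone in the spleen, and mouse 16 had 2.45 times as much in the marrow. The mean log2 ratio over the 7 NSG mice was 0.11 ± 2.58, against 2.18 ± 0.54 over the 8 Ptprca mice (SD). Without mouse 22 the NSG mean was -0.56. The lowest NSG ratios were those of mice 13 and 14, 0.188 and 0.144, and the spleen libraries of both were among the 6 that stood apart. Without the mice of those libraries the marrow was ahead in 3 of 5 NSG mice and 4 of 4 Ptprca mice, with mean log2 ratios of 1.198 ± 2.20 and 1.93 ± 0.63 (SD).

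In Ptprca mice the same clone held several times more of the marrow than of the spleen. With LSK cells present its marrow percentages were 10.8, 11.7, 10.4 and 16.3 in mice 17, 18, 19 and 20, and its spleen percentages 5.04, 1.79, 2.05 and 2.96 in the same mice. In the mice given GMP cells alone they were 8.87, 7.17, 9.84 and 11.7 in the marrow of mice 5, 6, 7 and 8, and 2.53, 1.84, 1.65 and 2.09 in their spleens. No marrow value of these 8 mice was as low as any of their spleen values. How many other GMP-library clones did the same was not counted, and the clone was chosen on this contrast. The looser trait, a higher marrow share in each of the 8 mice, was met by 18 of 78 clones (23.1%). The marrow share was 2.13 to 6.55 times the spleen share with LSK cells and 3.51 to 5.97 times with GMP cells alone, the lowest ratio being that of mouse 17. On the log2 scale the ratio averaged 2.15 ± 0.72 with LSK cells and 2.21 ± 0.38 with GMP cells alone (SD, n = 4 each).

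In NSG mice clone 1204592 was larger in the marrow of 5 mice and in the spleen of the other two. With LSK cells its marrow percentages in mice 21 to 23 were 10.0, 5.73 and 5.37, and those of the spleen 11.5, 5.19 and 3.16, with 5.58 in the spleen of mouse 24. Where GMP cells were given alone, the marrow of mice 13 to 16 held 13.02, 6.48, 10.9 and 20.3%, and the spleen 12.3, 12.8, 6.44 and 12.7%. Mice 14 and 21 had more of the clone in the spleen, and in both of them clone 4128 leaned the same way. The log2 ratio averaged 0.18 ± 0.64 over the 7 NSG mice, against 1.17 ± 0.53 over the 8 Ptprca mice (SD). Without the mice whose libraries stood apart it was 0.43 ± 0.44 in NSG mice, with the marrow ahead in 4 of 5, and 0.83 ± 0.09 in Ptprca mice, with the marrow ahead in 4 of 4 (SD).

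In Ptprca mice clone 1204592 leaned to the marrow by a smaller margin than clone 4128. With LSK cells its marrow percentages in mice 17 to 20 were 13.5, 12.2, 10.9 and 14.5, and those of the spleen 7.27, 4.05, 6.63 and 8.29. The marrow of mice 5 to 8, given GMP cells alone, held 11.9, 11.1, 15.2 and 10.97%, and the spleen 6.34, 2.77, 4.54 and 6.93%. The marrow and spleen values again did not overlap, a trait not counted over the other clones. This clone too was chosen on that contrast. The ratio lay between 1.64 and 3.02 with LSK cells and between 1.58 and 4.01 with GMP cells alone. Its log2 averaged 1.004 ± 0.40 and 1.33 ± 0.65 in the same order (SD, n = 4 each).

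In Ptprca mice most of the more abundant GMP-library clones leaned to the marrow, the direction of the members. The minimum that chose these clones covers both tissues, so clones high in marrow alone can pass it. In the mice with both tissues 98 clones passed it on marrow alone and 48 on spleen alone. Over the 78 clones with a mean of at least 100 counts per 1000000 GMP reads (CPM), the median log2 ratio in NSG mice was 0.056, clones 4128 and 1204592 ranked 38 and 35, and none of the 78 was higher in the marrow of all 7 mice. In Ptprca mice 18 of the 78 (23.1%), both members included, were higher in the marrow of all 8 animals. The mean log2 ratio was above 0 for 66 of the 78, and the median clone stood at 1.49. Clone 4128 ranked 19 of 78, and clone 1204592, at 1.17, ranked 50 and lay below the median clone. In a limma fit of the paired differences over all 15 mice, 16 of the 78 clones (20.5%) were called higher in marrow and 0 lower, with 28 at an unadjusted p under 0.05 in either direction. The members were chosen on this contrast, and nothing is read from their place in it.

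The members were also among the larger clones. Of the 9 clones with a mean of at least 1%, only the members and clone 532289 were higher in marrow in 8 of 8 Ptprca mice. Clone 532289, named here after its values were seen, averaged 2.42% and a log2 ratio of 1.16. The 2 largest clones did otherwise. Clone 283858 was lower in marrow in 8 of 8 Ptprca mice, at 20.7 ± 3.52% of the marrow and 33.5 ± 2.41% of the spleen. Clone 626161 was higher in marrow in 4 of the 8, at 30.6 ± 3.90% and 31.2 ± 4.21% (SD, n = 8). Of the other leading clones, 88201 was higher in the marrow of 6 of 7 NSG mice and of 1 of 8 Ptprca mice, and 205681 in that of 3 of 7 NSG mice and of 4 of 8 Ptprca mice.

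Together the members made up 12.6 ± 6.11% of the marrow of 7 NSG mice and 23.4 ± 3.72% of the marrow of 8 Ptprca mice (SD). In the spleen their sum was 13.7 ± 7.58% in 8 NSG mice and 8.34 ± 2.67% in 8 Ptprca mice (SD). The balance between them also differed from the pools. Clone 4128 was smaller than clone 1204592 in all but 3 of the 31 tissue libraries, whereas it was 1.496 times as large in the GMP pool and 1.59 times as large in the mixed pool. The 3 exceptions were the marrow of mice 8 and 20, both Ptprca, and the spleen of mouse 24. The median of clone 4128 over clone 1204592 was 0.215 in NSG marrow and 0.878 in Ptprca marrow, and 0.267 in NSG spleen and 0.381 in Ptprca spleen. Clone 4128 had the higher marrow-to-spleen ratio in 3 of 7 NSG mice and in 7 of 8 Ptprca mice.

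Against the pools the members also differed. Clone 1204592 was above its pool in the marrow and in the spleen of all 15 mice with both tissues. So were the other 4 of the 6 leading clones, which were picked for their size in recipients. Clones 626161, 283858, 88201 and 205681 averaged 10.5, 62.4, 14.2 and 77.3 times their pool over these mice, against 4.43 times for clone 1204592. The share over all 78 clones was not counted. The mean of the 2 tissues of clone 1204592 was 3.28 ± 1.66 times the pool in NSG mice with LSK cells (SD, n = 3) and 5.49 ± 1.63 times in NSG mice with GMP cells alone (SD, n = 4). In Ptprca mice it was 4.65 ± 0.72 and 4.03 ± 0.59 times the pool in the same order (SD, n = 4 each). Clone 4128 exceeded its pool in the marrow of 2 of 7 NSG mice and of 8 of 8 Ptprca mice. Its marrow share averaged 0.726 ± 0.557 times the pool in the 7 NSG mice and 3.31 ± 0.79 times in the 8 Ptprca mice (SD). In the spleen it exceeded the pool in 3 of 7 NSG mice, and in mouse 24 besides, at 4.45 times, and in 1 of 8 Ptprca mice. Each pool is 1 column without a replicate, so these folds carry no test.

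The difference between hosts in the members' share, averaged over marrow and spleen, is another quantity than the ratio that chose them. It is drawn from the same marrow and spleen values of the same mice, so its p-values are not independent of that choice. The same holds for the later comparisons with and without LSK cells. The difference was tested with limma over all 78 clones. With LSK cells present, clone 4128 held less of NSG than of Ptprca mice, by about as much as the median of these 78 clones. The minimum that admits clones is taken over both hosts together, so clones high in 1 host alone can pass it. The median therefore depends on it, and was -1.57 with a minimum of 1000 CPM and -1.11 with 10 CPM. Its mean share was 2.83, 2.60 and 0.663% in NSG mice 21, 22 and 23, and 7.90, 6.76, 6.25 and 9.61% in Ptprca mice 17, 18, 19 and 20. The groups did not overlap, which was so for 31 of the 78 clones (39.7%). Mouse 24, with 14.7% in its spleen and no marrow library, is not in this count. The log2 difference was -2.31 (SE 0.53, adjusted p = 0.00132), beside 39 of 78 clones called (50%), 2 of them higher and 37 lower in NSG mice, with a median of -2.21 over the 78. The direction turned to 1.18 (adjusted p = 0.120) when each mouse was centred on its median clone, a scaling under which 18 clones were called higher and 3 lower in NSG mice and the median over the 78 was 1.29. The call was lost with mouse 24 entered by its spleen alone (-1.39, adjusted p = 0.123) and with no minimum on the clones tested (-2.31, adjusted p = 0.0532), and kept without the mice whose libraries stood apart (-2.41, adjusted p = 0.0126). Leaving those mice out called neither member in the other comparisons of the share averaged over both tissues.

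Clone 1204592 was not called between hosts with LSK cells, at 6.83 ± 3.46% in NSG mice (SD, n = 3) and 9.68 ± 1.499% in Ptprca mice (SD, n = 4). Its log2 difference by limma was -0.53 (SE 0.32, unadjusted 95% interval -1.19 to 0.13, adjusted p = 0.162), and its direction turned to 2.96 after centring on the median clone (adjusted p = 7.09e-06) and to 0.066 without the 2 largest clones (adjusted p = 0.885). The intervals below are unadjusted too. It was called without NSG mouse 21 (-0.92, adjusted p = 0.0171) and as a share of all reads, LSK barcodes included (-1.16, adjusted p = 0.0210).

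With GMP cells alone, neither member was called between hosts, while 47 of 78 clones (60.3%) were, 5 higher and 42 lower in NSG mice, with a median of -2.57. Clone 4128 averaged 3.72 ± 2.48% in NSG mice and 5.71 ± 0.98% in Ptprca mice (SD, n = 4 each), and the groups overlapped. The log2 difference was -0.82 by limma (SE 0.49, 95% interval -1.85 to 0.20, adjusted p = 0.147). Clone 1204592 averaged 11.9 ± 3.52% in NSG mice and 8.72 ± 1.27% in Ptprca mice (SD, n = 4 each), a log2 difference of 0.54 by limma (SE 0.29, 95% interval -0.07 to 1.15, adjusted p = 0.112). Against the median of these 78 clones both members stood higher in NSG mice. That median also depends on the minimum, and was -0.65 with 1000 CPM and -1.32 with 10 CPM. After centring, the differences were 3.05 for clone 4128 (adjusted p = 7.68e-05) and 4.41 for clone 1204592 (adjusted p = 7.80e-09), with 24 clones called higher and 4 lower and a median of 1.31 over the 78.

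Each tissue was then compared between hosts on its own. In the marrow clone 4128 held 0.667 to 4.96% of 7 NSG mice, with a median of 1.78%, and 7.17 to 16.3% of 8 Ptprca mice, with a median of 10.6%. The hosts did not overlap there, which was so for 17 of the 78 clones (21.8%). In the spleen its NSG values, 0.214 to 12.4% in mice with both tissues and 14.7% in mouse 24, enclosed the Ptprca values of 1.65 to 5.04%. Both tissues enter the ratio that chose the clones, so these shares are given without a test. Log2 differences of single tissues appear elsewhere as effect sizes only.

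For clone 1204592 the marrow values overlapped between hosts, at 5.37 to 20.3% with a median of 10.0% in 7 NSG mice and 10.9 to 15.2% with a median of 12.1% in 8 Ptprca mice. Its spleen values were 3.16 to 12.8% in those NSG mice and 2.77 to 8.29% in the Ptprca mice. Mouse 24 held 5.58% in the spleen, within the range of both hosts.

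The presence of LSK cells called neither member in either host. In NSG mice clone 4128 averaged 2.03 ± 1.19% with LSK cells (SD, n = 3) and 3.72 ± 2.48% with GMP cells alone (SD, n = 4), a log2 difference of -1.07 by limma (SE 0.53, 95% interval -2.18 to 0.04, adjusted p = 0.227). That value was -0.15 with mouse 24 entered and -0.40 without the 2 largest clones, and lay between -1.69 and -0.44 when single mice were left out. Clone 1204592 averaged 6.83 ± 3.46% and 11.9 ± 3.52% in these groups, a difference of -0.84 by limma (SE 0.32, 95% interval -1.502 to -0.18, adjusted p = 0.117). Of the 78 clones 2 (2.56%) were called, and the median was -0.47. Without mouse 21, which leaves mice 22 and 23 with LSK cells, clone 1204592 was called at -1.24 (adjusted p = 0.0136), beside 5 of 80 clones. As a share of all reads, LSK barcodes included, both were called lower, by -2.44 for clone 4128 (adjusted p = 0.00542) and -2.22 for clone 1204592 (adjusted p = 0.000350). On that scale 23 of 76 clones were called, 0 of them higher, with a median of -0.99. LSK reads enter its total in mixed recipients and hardly at all with GMP cells alone. On the marrow alone the difference of clone 4128 was 0.54.

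In Ptprca mice both members had a slightly higher mean with LSK cells. Clone 4128 averaged 7.63 ± 1.49% with LSK cells and 5.71 ± 0.98% with GMP cells alone (SD, n = 4 each), a log2 difference of 0.42 by limma (SE 0.49, 95% interval -0.61 to 1.44, adjusted p = 0.872). Clone 1204592 averaged 9.68 ± 1.499% and 8.72 ± 1.27% (SD, n = 4 each), a difference of 0.22 by limma (SE 0.29, 95% interval -0.39 to 0.84, adjusted p = 0.880). Of the 78 clones 3 (3.85%) were called. As a share of all reads the differences were -0.33 (adjusted p = 0.710) and -0.52 (adjusted p = 0.372) for the 2 clones. The change with LSK cells was lower in NSG than in Ptprca mice by -1.48 for clone 4128 (SE 0.72, adjusted p = 0.263 by limma) and -1.07 for clone 1204592 (SE 0.43, adjusted p = 0.219 by limma), neither of them called, beside 1 clone of 78 (1.28%). Without mouse 21 that of clone 1204592 was called at -1.46 (adjusted p = 0.0313).

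The members tracked each other most closely within Ptprca mice. Over the 31 tissue libraries, the clone whose log2 share was most like that of clone 1204592 among 81 clones was clone 4128 (Pearson r = 0.57), followed by clones 387279 (0.56) and 29905 (0.55). For clone 4128 the nearest were 598660 (0.62), 536392 (0.62) and 310646 (0.60), all under 0.1% on average, and clone 1204592 had the rank 5. Between the members r was 0.45 within the NSG libraries and 0.90 within the Ptprca libraries. These correlations are descriptions. The marrow and spleen of a mouse are both among the points, all shares of a library sum to the same total, and the marrow-spleen contrast that chose both members enters them.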

How the data were processed

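Barcodes integrated in leukaemia cells were amplified and counted. The molecule is labelled genomic DNA, while the labels' extraction protocol describes loading of cells on a droplet chip, and the route to the DNA is unclear. The deposited values are CPM, made by the authors so that each column sums to 1000000, with PCR duplicates already collapsed into 1 column per tissue or pool. Bowtie 1.2.2 and R 3.6 are named per the submitters' processing notes, without settings. The tables hold barcode names and no sequences. Values came out as whole reads in 100% of cases (within 0.01 of a read).

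CPM were rescaled to the GMP library. Mice paired the tissues, since marrow and spleen carry the same mouse number in the labels. Shares were compared with limma 3.58.1 (lmFit, eBayes with trend, two-sided, Benjamini-Hochberg) on each mouse's mean over tissues of log2(CPM + 10), for the 78 clones with a mean of at least 100 CPM over 15 mice. Clones with an adjusted p under 0.05 were called. Fold changes on this scale understate those of low clones. Mouse 24, with spleen only, was left out of these fits, and entered the alternatives that add it or use the spleen alone. edgeR 4.0.16 was run on recovered reads. The fits were tested on simulated data.

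Named clones were the members, the other 4 of the 6 leading clones of mice given GMP cells alone, and the 3 most alike per member. Members, lists and tests were chosen with earlier results of these data known. Alternatives were other pseudocounts (1 and 100 CPM), minima (10 and 1000 CPM, or none), CPM as deposited, removal of the 2 largest clones, centring on the median clone, each tissue alone, mouse 24, eBayes without trend, edgeR, exact permutation tests, removal of 6 mice with atypical libraries, and each mouse left out. The spleen alone without mouse 24 was added after seeing the data.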

Additional observations from a re-analysis of the deposited data

Results flagged for a closer look

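In the spleens of NSG mice given GMP cells alone, clone 1204592 held 6.44% in mouse 15, far from the 12.3 to 12.8% of the other 3 mice. It was the 1 value that stood apart among 26 small groups of member values tested by Dixon's criterion, which chance exceeds in about 1 group in 20.

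Mice given LSK cells alone were by design not given the GMP library. Reads of clone 1204592 were nevertheless present in 14 of their 14 libraries, and of clone 4128 in 11 of 14. In some marrow libraries they stood above the LSK pool. That pool itself held 0.852 CPM of all reads for clone 4128 and 1.70 CPM for clone 1204592. The highest values were in the marrow of NSG mouse 12, at 137 CPM for clone 4128 and 121 CPM for clone 1204592. That library also stood apart by the limit used in the report, with 0.103% of its reads from the GMP library, which the mouse had not received. The marrow of NSG mouse 11 held 12.6 and 25.1 CPM of them. Clone 4128 also stood at 3.23 CPM in the marrow of Ptprca mouse 1, and clone 1204592 at 10.2 CPM in that of mouse 2 and 8.36 CPM in that of mouse 3. Over the 14 libraries of these mice the median was 0.894 CPM for clone 4128 and 0.927 CPM for clone 1204592. The source of these reads was not tested.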

How the results depend on the processing

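The log2 marrow-to-spleen ratios of the members moved by less than 1 SD between mice in all alternatives but 1, the centring. For clone 4128 in NSG mice that SD was 2.58. Means of the other sign fell within it, such as -0.56 without mouse 22, so it does not show a stable NSG ratio. Centred on the median clone, the Ptprca means were 1.07 for clone 4128 and 0.052 for clone 1204592. With no replicate block, that is unpaired tissues with mouse 24 included, the ratios were -0.28 and 0.25 in NSG mice and 2.18 and 1.17 in Ptprca mice, and 12 of 81 clones were called between tissues.

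For clone 4128, NSG minus Ptprca with LSK cells was -2.31 with no minimum (adjusted p = 0.0532), 1.18 centred and -1.39 with mouse 24. In spleen alone it was -1.04 with mouse 24 and -2.20 without it. For the mean of both tissues the exact permutation test gave p = 0.0571, the smallest that 3 against 4 mice allow. With GMP cells alone the difference between hosts was 3.05 centred, -2.56 in marrow alone and 0.92 in spleen alone, with mouse 24 in the fit or not. With LSK cells minus GMP alone was -2.44 on CPM as deposited, 0.54 in marrow alone and -2.67 in spleen alone without mouse 24 in NSG mice, and -0.33 on CPM as deposited in Ptprca mice. The difference of these changes was 0.15 in marrow alone.

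For clone 1204592, NSG minus Ptprca with GMP cells alone was 4.41 centred, -0.060 in marrow alone and 1.14 in spleen alone, with mouse 24 in the fit or not. With LSK cells it was 0.066 without the 2 largest clones, 2.96 centred and -0.91 in marrow alone. On CPM as deposited it was -1.16 and called, beside 36 of 76 clones. With LSK cells minus GMP alone was -2.22 in NSG and -0.52 in Ptprca mice on CPM as deposited. Leaving out each mouse gave -0.92 to -0.23 between hosts with LSK cells, -1.24 to -0.54 for LSK cells in NSG mice and -1.46 to -0.77 for the difference of changes. The causes were not tested.

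Called clones ranged from 8 to 70 between hosts with GMP cells alone (47 in the report), 11 to 48 with LSK cells (39), 0 to 23 for LSK cells in NSG mice (2), 0 to 12 in Ptprca mice (3) and 0 to 6 for the difference of changes (1). edgeR called 31, 25, 5, 0 and 2 in that order, the 0 beside 2 at an unadjusted p under 0.05. The 0 by limma with no minimum stood beside 18, 91 and 27 such clones.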
